A study of Mus musculus with 24 samples.

Results

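The miR-29 and miR-30 families are 2 groups of small regulatory RNAs that were read here in mouse heart. In the table of small RNA genes, the rows were chosen by name: every row that begins mmu-mir-29 or mmu-mir-30 followed by a letter. This gave 10 of 568 rows, 4 of the miR-29 family (mmu-mir-29a, mmu-mir-29b-1, mmu-mir-29b-2 and mmu-mir-29c) and 6 of the miR-30 family (mmu-mir-30a, mmu-mir-30b, mmu-mir-30c-1, mmu-mir-30c-2, mmu-mir-30d and mmu-mir-30e). The rule uses names only and no measured value, though the families were chosen with earlier results of these data known. The hearts came from mice on a CD1 background that all carry a transgene for RLC, the regulatory light chain of myosin, named wtTg or mutTg in the sample names and called wild type and mutant here. The genotype field reads RLC-47K L6 for every sample, wild type included, so the genotype rests on the sample names. Nothing in the labels states the promoter of the transgene, and 1 line is named.

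The 4 groups were wild type with control virus (2 small RNA libraries, replicates 2 and 3), mutant without virus (2, replicates 9 and 11), mutant with control virus (3, replicates 1 to 3) and mutant with the shRNA virus (4, replicates 5 to 8). The virus was AAV9, an adeno-associated virus, injected at 3 days of age. The shRNA virus codes for M7.8L, a short hairpin RNA behind the H1 promoter, and for the fluorescent protein Cerulean behind an RSV promoter. Hearts were taken at 4 months. PolyA RNA was read from 13 hearts, among them all 11 hearts with a small RNA library, so target messenger RNAs can be set beside the small RNAs of the same animals.

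A microRNA is cut from a hairpin RNA into a mature strand, of 22 or 23 bases for those printed here, which guides a silencing complex to messenger RNAs that pair with its seed, bases 2 to 8. Messenger RNAs with such sites are then less stable or less translated. The miR-29 family is known for sites in many collagen, fibrillin and elastin messages and is abundant in cardiac fibroblasts. The miR-30 family is known in heart for a site in the message of Ctgf, a growth factor of connective tissue, and for targets in adrenergic signalling, autophagy and cell death.

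The following mature sequences are shown because the members of each family share a seed while their rows are counted separately. They were taken from RefSeq, build GRCm38.p6, and the seed is in capitals. Of the 10 rows, 8 matched the RefSeq sequence table; mmu-mir-30b and mmu-mir-30d are named only.
mmu-miR-29a-3p: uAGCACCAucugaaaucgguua
mmu-miR-29b-3p: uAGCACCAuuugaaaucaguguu
mmu-miR-29c-3p: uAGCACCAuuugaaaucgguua
mmu-miR-30a-5p: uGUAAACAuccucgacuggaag
mmu-miR-30c-5p: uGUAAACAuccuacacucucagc
mmu-miR-30e-5p: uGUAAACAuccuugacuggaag
mmu-miR-30a-3p: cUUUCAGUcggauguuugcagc
mmu-miR-30e-3p: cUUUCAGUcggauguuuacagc

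The seed AGCACCA was found in 3 of 1679 mature mouse miRNAs of that table, all of the miR-29 family. The seed GUAAACA was found in 4, the 3 shown and mmu-miR-384-5p. Counted from the 5′ end, mmu-miR-29c-3p differs from mmu-miR-29a-3p by C10U alone, and mmu-miR-30e-5p differs from mmu-miR-30a-5p by C13U alone. The other strand of the mir-30a and mir-30e hairpins shares the seed UUUCAGU. Both mir-29b loci code for the same mmu-miR-29b-3p, and both mir-30c loci for the same mmu-miR-30c-5p, so a read of these strands cannot be given to 1 locus. The rows for mir-29b-1, mir-29b-2, mir-30c-1 and mir-30c-2 are uncertain for this reason, since the labels do not state how such reads were counted.

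In GRCm38.p6 the hairpins lie in pairs. The mir-29b-1 hairpin (chr6:31063023-31063093, minus strand) and mir-29a (chr6:31062660-31062747, minus strand) are 275 bases apart. The mir-29b-2 hairpin (chr1:195037040-195037120) and mir-29c (chr1:195037547-195037634) are 426 bases apart on the plus strand. The mir-30e hairpin (chr4:120772606-120772697) and mir-30c-1 (chr4:120769534-120769622) are 2983 bases apart on the minus strand, in the gene Nfyc. The mir-30a hairpin (chr1:23272269-23272339) and mir-30c-2 (chr1:23291701-23291784) are 19361 bases apart on the plus strand. The deposited values were made on another build, mm9, and no coordinate of theirs is used.

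The values are FPKM, fragments scaled by the length of the feature and by the mapped fragments of the library. What 1 read is worth in a library and at a hairpin length is called a step here. In the small RNA table a step was found for 332 of 568 rows, which held 25.9% to 41.0% of the FPKM of a library. Of 1389 values there that came to fewer than 2000 reads, 100% were whole multiples of the step within 0.02 of a read. Each step was chosen so that low values of its hairpin length came out whole, so part of this share was built in. The reads behind each value are called implied reads here. For mir-30b and mir-30d, without a RefSeq length, the largest common step of their own values was taken. Their whole reads were thus built in. The value of 1 read fell steeply with hairpin length: it was 3.52 times higher for a hairpin of 71 bases, such as mir-30a, than for one of 88 bases, such as mir-29a. FPKM were therefore compared only within a row, across libraries, and implied reads were used to compare rows. Over the 332 rows with a known step, a library held 31229 to 131908 implied reads, lowest in control virus replicate 3.

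Of the reads counted in these rows, each family was carried almost wholly by 1 row. The mir-29a row held 99.8% of the implied reads of its family and mir-30a 98.2% of those of its family. These shares cover counted reads and are not the make-up of the families. How reads shared by the 2 loci of mir-29b or of mir-30c were counted is not stated. Per library, mir-30a had 5299 to 25708 implied reads with a median of 15892, and mir-29a had 1653 to 7781 with a median of 3831. Next came mir-30d with 31 to 183 (median 113), mir-30e with 40 to 170 (median 88) and mir-30c-1 with 30 to 126 (median 77). The lower rows were mir-30b with 3 to 20, mir-29c with 4 to 18 and mir-29b-2 with 0 to 4. The order mir-30a over mir-29a over mir-30d held in 11 of 11 libraries, and mir-30c-1 was over mir-30b in 11 of 11. Between mir-30d and mir-30e (7 libraries one way, 4 the other) and between mir-30e and mir-30c-1 (5 and 6) the order was not the same from heart to heart. A hairpin row can hold reads of both strands, so these are levels of the row and not of 1 mature miRNA.

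**Figure D1:**
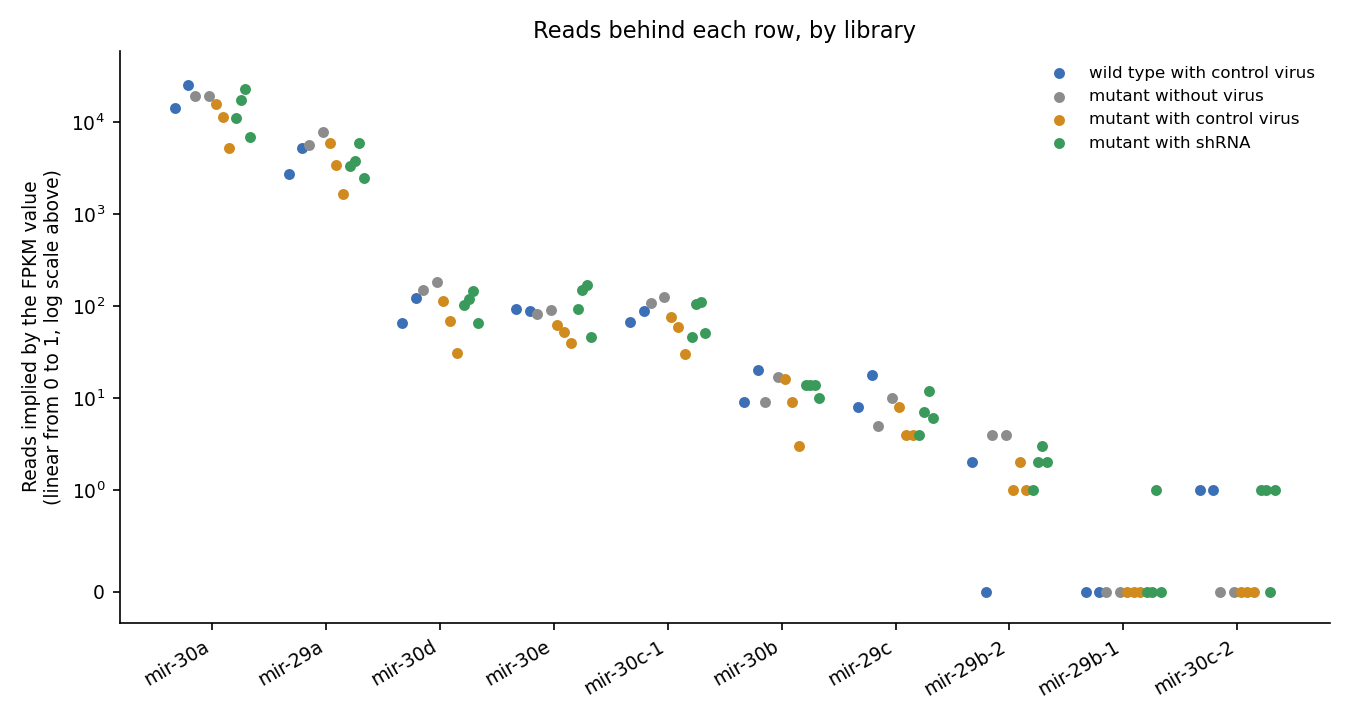
Implied reads (vertical axis, linear from 0 to 1 and log scale above) of the 10 rows (horizontal axis, ordered by median) in each of 11 libraries, 1 point a library, coloured by group. Reads of mir-30a and mir-29a are at 1653 or more in every library, mir-30b and mir-29c lie at 3 to 20 reads, and mir-29b-1 and mir-30c-2 are at 0 or 1 read.

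Rows listed at 0 in most libraries were mir-29b-1, at 0 in 10 of 11 libraries with 1 implied read in shRNA replicate 7, and mir-30c-2, at 0 in 6 of 11 with 1 read in each of the other libraries. The mir-29b-2 row was at 0 in 1 library, wild-type replicate 3. A count of 0 allows up to 3.69 reads (exact Poisson, 95%), so these rows bear no comparison between groups and no fold is given for them. They are kept in the counts below because the fit took in all 10 rows.

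The mir-29a row was close to level across all hearts. FPKM of the miRNA rows are large and are given in MFPKM (1e+06 FPKM) or kFPKM (1000 FPKM). The mir-29a row had 13.8 and 15.3 MFPKM in the wild-type hearts, 14.0 and 14.1 MFPKM in the untreated mutants, 14.0, 13.2 and 13.9 MFPKM with control virus, and 13.9, 12.3, 13.8 and 12.7 MFPKM with the shRNA virus. The wild-type hearts overlapped with every group, while both untreated mutants lay above all control virus and shRNA mutants, and the highest library was 1.24 times the lowest. Within groups the coefficient of variation was 7.48% in wild type, 0.473% in untreated mutants, 2.96% with control virus and 6.18% with the shRNA virus, against 1.24% to 1.89% from counting alone.

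The mir-29c row had few reads and a wide spread. It had 39.9 and 52.0 kFPKM in wild type (8 and 18 reads), 12.4 and 18.1 kFPKM in untreated mutants, 19.0, 15.4 and 33.5 kFPKM with control virus, and 16.8, 22.5, 27.8 and 30.6 kFPKM with the shRNA virus. Both wild-type hearts lay above all 9 mutant hearts. With 4 reads each in control virus replicates 2 and 3, counting alone gives a coefficient of variation of 45.6% in that group, against 42.5% seen.

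The mir-30a row, which carries most reads of the 10 rows, was highest in the wild-type hearts, at 251 and 261 MFPKM. Untreated mutants had 167 and 124 MFPKM, control virus mutants 133, 156 and 156 MFPKM, and shRNA mutants 163, 196, 187 and 125 MFPKM. All 9 mutant hearts lay under both wild-type hearts, with or without a virus. Of the shRNA hearts, replicate 8 was lowest and lay among the untreated and control virus mutants, and replicates 5 to 7 lay above all 3 control virus hearts.

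The mir-30d row was flat within the control virus group. It had 479 and 513 kFPKM in wild type, 544 and 484 kFPKM in untreated mutants, 391, 386 and 378 kFPKM with control virus, and 637, 562, 489 and 490 kFPKM with the shRNA virus. The 3 control virus hearts lay under all 8 others. Their coefficient of variation of 1.65% is smaller than the 13.6% that counting gives at 113, 69 and 31 reads, so the values of that group lie closer together than their depth can resolve.

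The mir-30e row varied most among the better covered miR-30 rows. It had 371 and 203 kFPKM in wild type, 163 and 132 kFPKM in untreated mutants, 118, 160 and 268 kFPKM with control virus, and 309, 381, 315 and 188 kFPKM with the shRNA virus. The shRNA replicates 5 to 7 lay above every other mutant heart, while replicate 8 and control virus replicate 3 overlapped with the other group. Its neighbour mir-30c-1, from the same gene, had 315 and 243 kFPKM in wild type, 254 and 216 kFPKM in untreated mutants, 173, 214 and 237 kFPKM with control virus, and 183, 322, 245 and 245 kFPKM with the shRNA virus. In that row the 3 mutant groups overlapped. The mir-30b row, at 3 to 20 reads, ran from 14.6 kFPKM in untreated replicate 9 to 38.3 kFPKM in shRNA replicate 5.

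**Figure D2:**
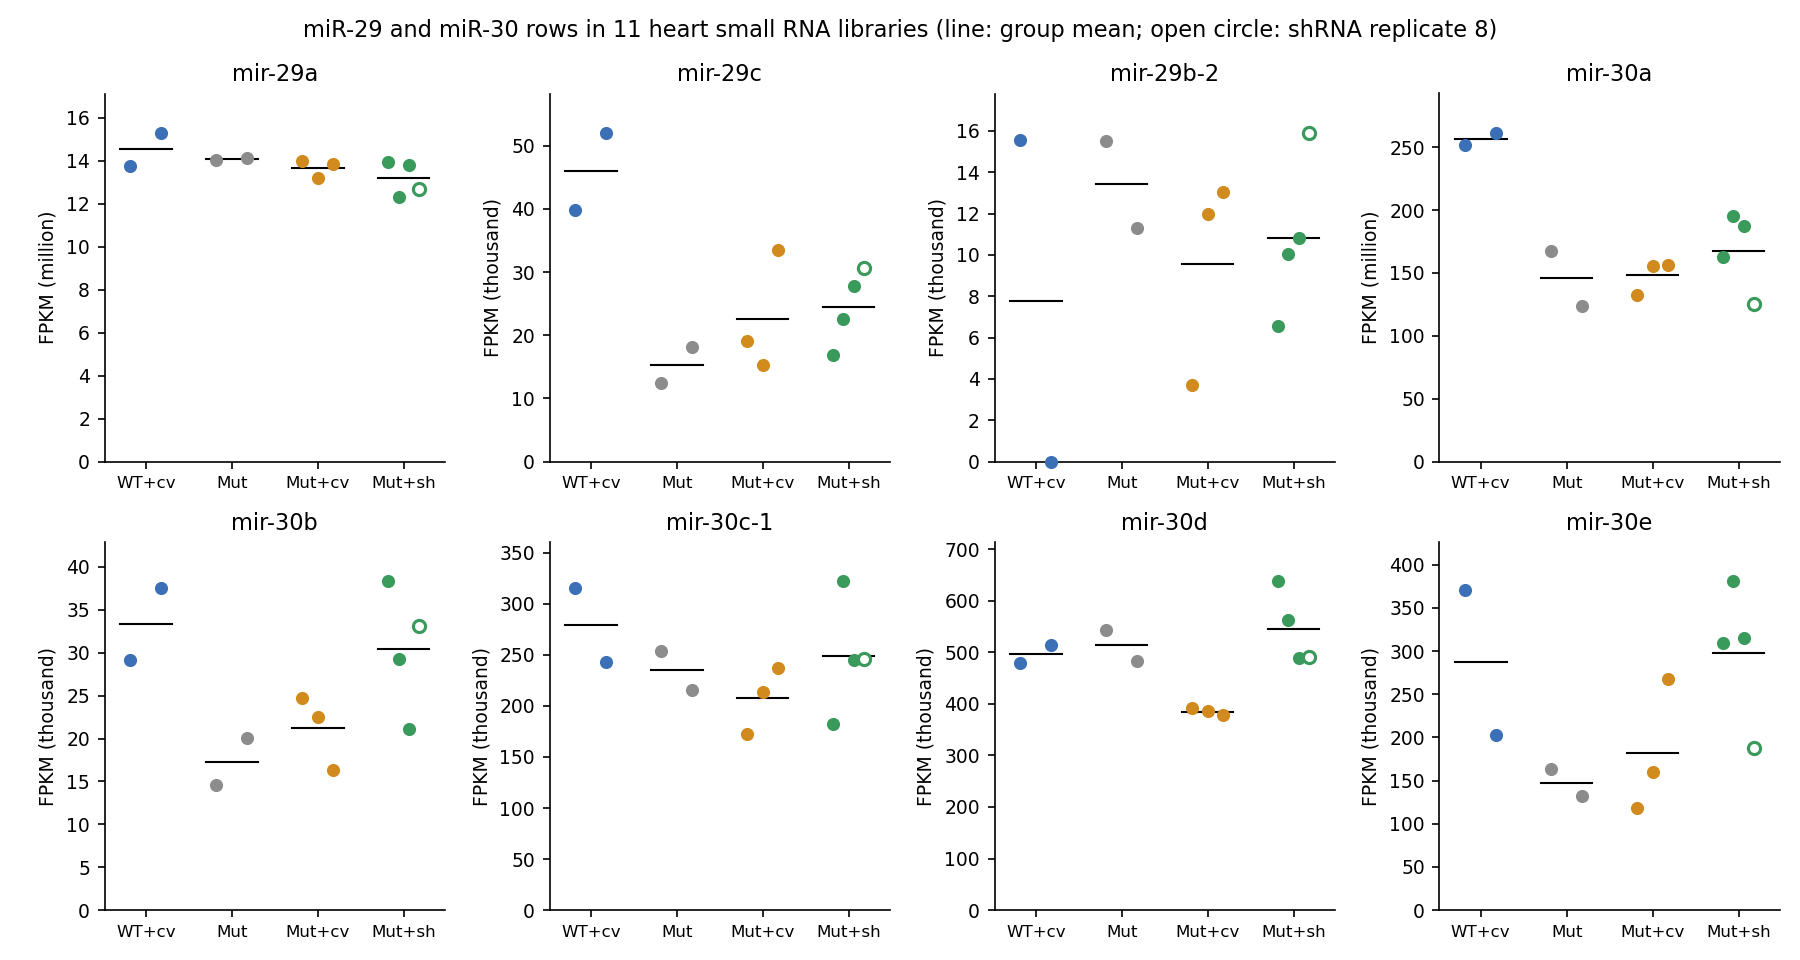
FPKM (vertical axes from 0, in MFPKM or kFPKM) of the 8 rows above 0 in at least 10 libraries, by group (WT+cv, wild type with control virus; Mut, mutant without virus; Mut+cv, mutant with control virus; Mut+sh, mutant with shRNA virus); points are libraries, lines are group means and the open circle is shRNA replicate 8. The mir-29a points lie between 12.3 and 15.3 MFPKM, and for mir-30a both wild-type points, 251 and 261 MFPKM, lie above all mutant points.

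Mutant and wild-type hearts, both with control virus, were compared first. None of the 10 rows passed at a limma adjusted p under 0.05, and none of all 280 rows tested did (0% called). At an unadjusted p under 0.05 there were 35 of 280 rows and 2 of the 10, mir-30a and mir-30c-2. The mir-30a row was 1.73-fold lower in mutants (148 ± 13.3 MFPKM, SD, n = 3, against 256 ± 7.02 MFPKM, SD, n = 2). Its log2 difference was -0.79, with a 95% interval of -1.30 to -0.29 and a limma adjusted p of 0.135 (0.00581 unadjusted). The mir-29c row differed by -1.09 (-2.26 to 0.08) and mir-30d by -0.37 (-0.75 to 0.02), both with an adjusted p of 0.405. For mir-30e the difference was -0.68 (-1.61 to 0.25), for mir-30b -0.67 (-1.71 to 0.38) and for mir-30c-1 -0.42 (-1.03 to 0.18). The mir-29a difference was -0.08, with an interval from -0.37 to 0.20. Groups did not overlap in 6 of the 10 rows, all lower in mutants (mir-29c, mir-30a, mir-30b, mir-30c-1, mir-30c-2 and mir-30d); over all rows the share was 28.2%, with 39 rows higher and 40 lower.

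Within mutants, the shRNA virus was compared with the control virus. None of the 10 rows passed, and 0% of the 280 did, with 42 rows at an unadjusted p under 0.05, among them mir-30d and mir-30c-2. The mir-30d row was 1.41-fold higher with the shRNA virus (545 ± 70.6 kFPKM, SD, n = 4, against 385 ± 6.35 kFPKM, SD, n = 3). Its log2 difference was 0.49, with a 95% interval of 0.17 to 0.82 and a limma adjusted p of 0.152 (0.00721 unadjusted). The mir-30e row had a difference of 0.75 (-0.02 to 1.53, adjusted p = 0.355). For mir-30a the difference was 0.16 (-0.26 to 0.58), and for mir-29a it was -0.05 (-0.29 to 0.18). The 2 groups did not overlap in 1 of the 10 rows, mir-30d, and in 9.29% of all rows.

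The remaining comparisons gave no call either. Between control virus and untreated mutants 0% of rows passed, with 9 rows at an unadjusted p under 0.05, among them mir-30d (log2 difference -0.41, -0.80 to -0.02, limma adjusted p = 1). The groups did not overlap in 2 of the 10 rows, mir-29a and mir-30d, both lower with control virus, and in 12.5% of all rows. Between shRNA mutants and wild type 0% passed, with 17 rows at an unadjusted p under 0.05, among them mir-30a. This row was 1.55-fold lower in the shRNA mutants (log2 difference -0.63, -1.11 to -0.15, limma adjusted p = 0.658, unadjusted 0.0148). Groups did not overlap in mir-30a and mir-29c, and in 14.3% of all rows. The comparisons share groups, so their values are not independent of each other. Labels do not say how animals were drawn within a group, and p-values measure the spread between these libraries only.

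**Figure D3:**
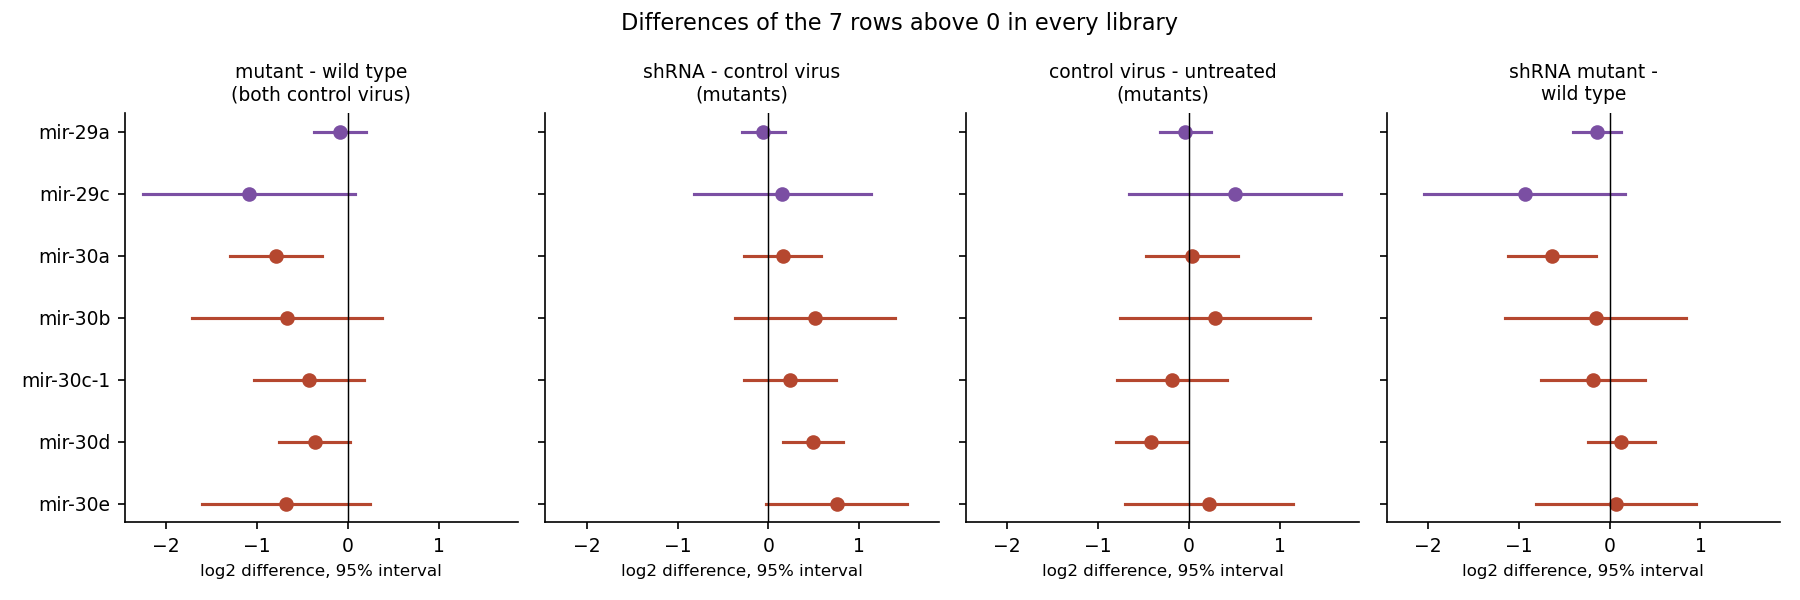
Log2 differences (horizontal axes; points) with 95% intervals from limma (lines) for the 7 rows above 0 in every library, in 4 comparisons; miR-29 rows are purple and miR-30 rows red. The interval of mir-30a lies below 0 in both comparisons with wild type, at -1.30 to -0.29 and -1.11 to -0.15, and that of mir-30d above 0 for shRNA against control virus, at 0.17 to 0.82.

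One library, shRNA replicate 8, stood apart. In mir-208b, a muscle row whose hairpin lies in Myh7, the slow myosin heavy chain gene, it had 64.5 MFPKM, against 1.62 to 3.56 MFPKM in shRNA replicates 5 to 7, 1.67 and 1.96 MFPKM in wild type and 37.9 to 56.9 MFPKM in the other mutants. This library also enters the spread that all groups share in the fit. Without it, the mir-30a difference between mutant and wild type, which does not use it, kept its size and had a limma adjusted p of 0.0290, with 19 of 280 rows passing (6.79%). The mir-30d difference between shRNA and control virus was then 0.54 with an adjusted p of 0.0464, with 26 of 280 rows passing (9.29%), and mir-30e had 0.96 with an adjusted p of 0.103.

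Sex moved with the groups. A heart with Ddx3y, a gene of the Y chromosome, above 5 FPKM in polyA RNA was taken as male. Both wild-type hearts with a small RNA library were male and all 3 mutant hearts with control virus were female. Of the shRNA hearts, replicates 5 to 7 were male and replicate 8 female. Of the hearts read in polyA RNA only, wild-type replicate 4 was female and untreated replicate 10 male. Among mutants, mir-30a ran from 163 to 196 MFPKM in 4 males and from 124 to 156 MFPKM in 5 females, without overlap. The males were shRNA replicates 5 to 7 and untreated replicate 9, and all control virus hearts were among the females. How many of all rows split by sex in this way was not counted, so the split is not read as particular to mir-30a. Of the untreated mutants the male had 167 MFPKM and the female 124 MFPKM. Wild-type males, at 251 and 261 MFPKM, lay above the 4 mutant males. With sex in the fit the mir-30a difference between mutant and wild type was -0.30 (limma adjusted p = 0.778), and that between shRNA and control virus was -0.21. Between mutant and wild type with control virus in small RNA, every mutant was female and every wild-type heart male. Genotype and sex therefore cannot be told apart within those 5 libraries, and the fit with sex draws on the other groups. Between shRNA and control virus the only heart of the shRNA group that shares the sex of the control virus hearts is replicate 8. For mir-30d, mutant females ran from 378 to 490 kFPKM and mutant males from 489 to 637 kFPKM, and without replicate 8 the shRNA comparison sets 3 males against 3 females. With sex in the fit that mir-30d difference was 0.35 (limma adjusted p = 0.913).

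Rows that mark other tissues moved with the groups too. The liver row mir-122 was at 422 and 1276 kFPKM in wild type and at 382, 896 and 336 kFPKM in shRNA replicates 5 to 7, but at 14.4 to 50.7 kFPKM with control virus, 54.9 and 105 kFPKM in untreated mutants and 0 in shRNA replicate 8. The endothelial row mir-126 ran from 174 to 214 MFPKM in wild type, 134 to 169 MFPKM with control virus and 137 to 331 MFPKM with the shRNA virus. Of the leukocyte rows mir-142 was at 17.0 and 12.7 MFPKM in wild type, 27.0 to 40.5 with control virus and 15.3 to 22.6 with the shRNA virus, while mir-150 was at 15.6 and 18.9 MFPKM, 7.16 to 11.6 and 7.98 to 21.9 in the same groups. Control virus hearts were thus highest in mir-142 and under both wild-type hearts in mir-150. The third, mir-223, was at most 8.79 kFPKM and at 0 in control virus replicate 1. Untreated mutants had 150 and 168 MFPKM of mir-126, 22.8 and 25.3 of mir-142, and 10.1 and 7.45 of mir-150. The part of other cells in the miR-29 and miR-30 values was not tested, and in whole tissue fewer cells of a type and less RNA per cell cannot be told apart. As for the labelled tissue, the heart rows mir-208a, mir-208b and mir-499 were above 0 in all 11 libraries, whereas both mir-133a rows were at 0 in 7 or more. Unlike mir-208b, the rows mir-208a and mir-499 were lower in mutants without the shRNA virus than in wild type. The mir-208a row had 5.78 and 7.25 MFPKM in wild type, 3.26 and 3.48 in untreated mutants and 2.89 to 4.31 with control virus. With the shRNA virus it had 3.87 to 5.64. For mir-499 the values were 5.77 and 7.55, 2.64 and 1.84, and 2.42 to 2.63 MFPKM. With the shRNA virus mir-499 had 9.22 to 11.1 in replicates 5 to 7 and 3.41 in replicate 8. The mir-133a rows are numbered loci like those of mir-29b, and the counting of reads shared between loci is not stated. Their zeros are therefore not read as absence. The listed mir-1a-1 and mir-1a-2 had no row.

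Among 147 other rows with a mean of at least 10000 FPKM, the 10 members left out, the 3 rows nearest to each member were found by the root mean square of the difference between their centred log2 profiles over 11 libraries. A flat profile would score a member's own root mean square about its mean, and rows past that value are not called alike. For mir-29a this was 0.0791, and no row came closer (the nearest had 0.111). For mir-30a they were mir-192 (0.184), mir-208a (0.206) and mir-328 (0.221), against 0.348 for a flat profile. The mir-30d profile was nearest to let-7d (0.159), let-7a-2 (0.173) and let-7g (0.193), against 0.227 when flat, and mir-30e to mir-486 (0.221), mir-150 (0.324) and mir-378 (0.368), against 0.572. For mir-30c-1 only mir-181a-2 (0.192) and let-7c-2 (0.224) of the 3 came closer than a flat profile (0.265). The low rows were nearest to mir-335, mir-208a and mir-20a (mir-29c, 0.402 to 0.470, flat 0.606) and to let-7f-1, let-7d and let-7b (mir-30b, 0.366 to 0.375, flat 0.443). Each library is scaled to its own total, which these profiles share, and this is a description only.

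The matrix genes that miR-29 is known to target were then read in polyA RNA of 13 hearts. Of 16 listed genes 15 were tested; Col2a1, a cartilage collagen, was too low. In mutant against wild type with control virus 10 of the 15 rose and 0 fell, beside 9.5% of all 12980 genes called. The median log2 difference was 1.35, against -0.14 over all genes tested. The fibrillar collagens Col1a1 (4.91-fold, limma adjusted p = 0.0122), Col1a2 (3.41-fold, 0.0227) and Col3a1 (6.48-fold, 0.00453) rose, as did Fbn1, which codes for fibrillin (3.07-fold, 0.0142), and Eln, which codes for elastin (3.18-fold, 0.0349). Col15a1, Col5a2, Mmp2, a gelatinase, Col5a1 and Col5a3 rose by 2.38-fold to 3.31-fold. Sparc, a collagen-binding protein, had a difference of 1.23 and an adjusted p of 0.0635. The mir-29a row over the same 2 groups differed by -0.08.

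Col3a1 shows the pattern in single hearts. Its FPKM were 48.4, 66.9 and 70.6 in wild type, 205, 146 and 219 in untreated mutants, 357, 525 and 346 with control virus and 84.4, 129, 88.1 and 483 with the shRNA virus, the last being replicate 8. All mutants without the shRNA virus lay above wild type, and so did the shRNA hearts, of which replicates 5 to 7 lay below every other mutant. In the same shRNA hearts mir-29a was 13.9, 12.3, 13.8 and 12.7 MFPKM.

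With the shRNA virus against the control virus 3 of the 15 fell and 0 rose, beside 35% of all genes called, 4330 of them higher and 215 lower. Col1a1 fell (log2 difference -1.44, limma adjusted p = 0.0260), as did Col3a1 (-1.45, 0.0174) and Col15a1 (-0.94, 0.0481). The median over the list was -0.72, against 0.47 over all genes, and this scale shift matters: with the libraries aligned on their medians 15 of 15 fell and 24.1% of all genes were called. Aligned in the same way, 15 of 15 rose in mutant against wild type, with 24.3% of all genes called. Without shRNA replicate 8, 12 of 15 fell, beside 39.4% of all genes, and for mutant against wild type, where that library enters only the spread, 13 rose, beside 21.2%. Between shRNA mutants and wild type 0 of 15 passed, 4 with an unadjusted p under 0.05, beside 0.108% of all genes (0.0847% when aligned), and the list median was 0.73 against 0.34.

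These calls rested on few libraries. Leaving out 1 heart of the compared groups left 1 to 4 of the 10 matrix genes that rose in mutants, with sex in the fit 1 passed, and with no filter on low values 0. For the 3 that fell, sex in the fit left 0.

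Summed fibroblast and leukocyte markers were, like the matrix genes, higher with control virus in mutants than in wild type. The 5 fibroblast markers summed to 724 to 1059 FPKM in wild type, 1418 to 2266 with control virus and 755 to 3140 with the shRNA virus, where replicate 8 was highest. The 5 leukocyte markers summed to 270 to 294, 698 to 1208 and 223 to 1740. In untreated mutants the fibroblast markers summed to 1344 to 1887 FPKM and the leukocyte markers to 549 to 697. Most of each sum was 1 gene, Dcn for fibroblasts (mean 737 FPKM in wild type) and Lyz2 for leukocytes (228). Singly, 0 of 5 fibroblast and 1 of 5 leukocyte markers rose in mutants, beside 9.5% of all genes called. With the shRNA virus 0 of 5 passed in either list, beside 35%. With the libraries aligned 3 and 4 rose in mutants, beside 24.3%, and 3 of each fell with the shRNA virus, beside 24.1%. The 3 smooth muscle markers split between wild type and control virus mutants. Mean Acta2 was higher in mutants (788 against 184 FPKM), while Myh11 (6.75 against 15.0) and Tagln (28.1 against 37.4) were lower. No fibroblast or leukocyte marker was at 0 in any library. The 5 cardiomyocyte markers summed to 36991 to 56176 FPKM in wild type and 21122 to 34084 in untreated mutants. With control virus they summed to 25422 to 41151, and with the shRNA virus to 54782 to 88108. Singly, 2 of 5 fell in mutants and 3 of 5 rose with the shRNA virus, beside 9.5% and 35%. Aligned, 1 fell and 1 rose, beside 24.3% and 24.1%. The lowest Myh6 value was 0 in all but the shRNA group, so those sums are uncertain. The part of these cell types in the matrix values was not tested.

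Of the other known miR-29 targets, few passed in mutants. Of 14 genes, mostly for DNA methylation, cell survival and growth signalling, 0 rose and 1 fell in mutants, beside 9.5% of all genes called. It was Pik3r1, a regulatory subunit of PI3 kinase (log2 difference -1.35, limma adjusted p = 0.00850). With the libraries aligned 1 rose (Cdc42) and 1 fell (Pik3r1) in mutants, beside 24.3%. With the shRNA virus 7 rose and 0 fell, beside 35% of all genes called, with a median of 0.59 against 0.47 over all genes. Once the libraries were aligned 1 rose, beside 24.1%. The 7 were Pik3r1 (1.36), Tdg (1.13) and Tet1 (0.94), which act in DNA demethylation, Dnmt3a, a de novo DNA methyltransferase (0.81, adjusted p = 0.0127), Tet2, of the same family as Tet1 (0.75), Mcl1, which protects from cell death (0.71, adjusted p = 0.0267), and Ppm1d, a phosphatase of the DNA damage response (0.65). Between shRNA mutants and wild type 0 of 14 passed, 1 at an unadjusted p under 0.05, beside 0.108% of all genes.

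Of 17 listed miR-30 targets, 1 rose and 1 fell in mutants, a share near the 9.5% of all genes called. Ctgf rose 10.3-fold (limma adjusted p = 0.00897) and Dll4, a Notch ligand of endothelium, fell by 0.78 on the log2 scale (adjusted p = 0.0345). The list median was 0.19, against -0.14 over all genes. With the libraries aligned, 5 of the 17 rose and 1 fell in mutants, beside 24.3% of all genes called. Snai1, a repressor of epithelial genes, had a difference of 1.13 with an adjusted p of 0.0816, and Ppp3ca, the catalytic subunit of calcineurin, -0.49 with 0.181. With the shRNA virus Ctgf fell (-2.30, adjusted p = 0.0116), while Dll4 (1.04), Adrb1, the main cardiac adrenergic receptor (0.98, adjusted p = 0.00768), and Ppp3ca (0.85, adjusted p = 0.00672) rose, and the list median was 0.22 against 0.47. These 4 of 17 stand beside 35% of all genes called. Aligned, 1 of the 17 rose with the shRNA virus (Dll4) and 4 fell (Ctgf, Snai1, Itgb3 and Twf1), beside 24.1%. Between shRNA mutants and wild type 0 of 17 passed, 3 at an unadjusted p under 0.05, beside 0.108% of all genes.

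The Ctgf calls were lost with no filter on low values (limma adjusted p = 0.0854 in mutants and 0.0893 with the shRNA virus) and with sex in the fit (0.0519 and 0.0907), and in mutants with the replicate block (0.128). The 4 endothelial markers ran the same way as Dll4: all 4 were lower in mutants, of which Cdh5 (-0.83, adjusted p = 0.0294) and Kdr (-0.74, 0.0409) fell, and all 4 rose with the shRNA virus (0.87 to 1.23), also when aligned. They summed to 300 to 338 FPKM in wild type and 178 to 231 in untreated mutants. With control virus the sums were 166 to 231 and with the shRNA virus 341 to 534. The part of the endothelial markers in the Dll4 values was not tested.

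**Figure D4:**
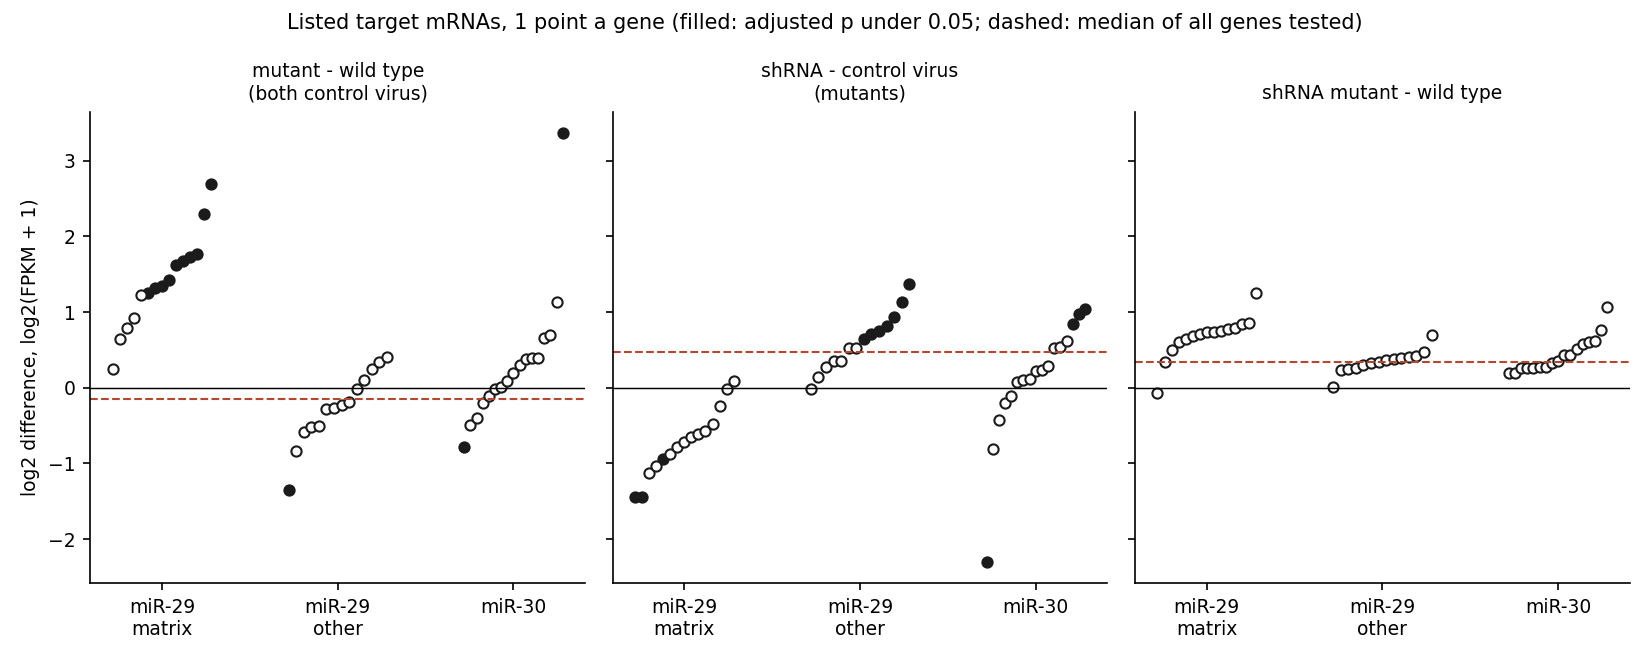
Log2 differences (vertical axis, on the log2(FPKM + 1) scale) of listed targets in polyA RNA, 1 point a gene ordered by value within a list, in 3 comparisons; filled points passed at a limma adjusted p under 0.05, the dashed line is the median of all genes tested. In mutant against wild type 10 of 15 matrix genes are filled above the line, and in shRNA against control virus 3 are filled below 0.

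Ctgf was 58.5, 120 and 78.8 FPKM in wild type, 1040, 1021 and 881 in untreated mutants, 1006, 1119 and 554 with control virus, and 51.9, 136, 121 and 1042 with the shRNA virus. Replicate 8, the last, lay among the other mutants, and replicates 5 to 7 among or near the wild-type hearts. In the 11 hearts with both libraries, the 4 with the highest mir-30a (both wild-type hearts and shRNA replicates 6 and 7, at 187 to 261 MFPKM) had 58.5 to 136 FPKM of Ctgf. The shRNA replicate 5 had 163 MFPKM of mir-30a and 51.9 FPKM of Ctgf. The other 6 hearts had 124 to 167 MFPKM and 554 to 1119 FPKM. These 11 points share their groups, so no correlation is given.

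Nfyc, the subunit of a transcription factor whose gene holds the mir-30e and mir-30c-1 hairpins, had 22.2, 28.3 and 30.9 FPKM in wild type, 18.8, 15.0 and 12.99 in untreated mutants, 15.5, 24.5 and 16.3 with control virus, and 26.2, 44.1, 33.8 and 41.2 with the shRNA virus. All 4 shRNA hearts lay above every other mutant heart, and Nfyc rose (log2 difference 0.92, limma adjusted p = 0.00851; aligned 0.43, adjusted p = 0.0271). In mutant against wild type the difference was -0.53 with an adjusted p of 0.209 (aligned -0.38, adjusted p = 0.0475). The differences of mir-30e in the same comparisons were 0.75 and -0.68, and those of mir-30c-1 0.24 and -0.42, none of which passed. Leaving out control virus replicate 1 or 3 ended the Nfyc call for the shRNA virus (0.80 and 0.84, limma adjusted p = 0.0578 and 0.0524). In shRNA replicate 8 mir-30e was at 188 kFPKM and mir-30c-1 at 245 kFPKM; its Nfyc value depends on the scale, since the median shift of that polyA library, 0.80 on the log2 scale, was the largest of the 13.

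**Figure D5:**
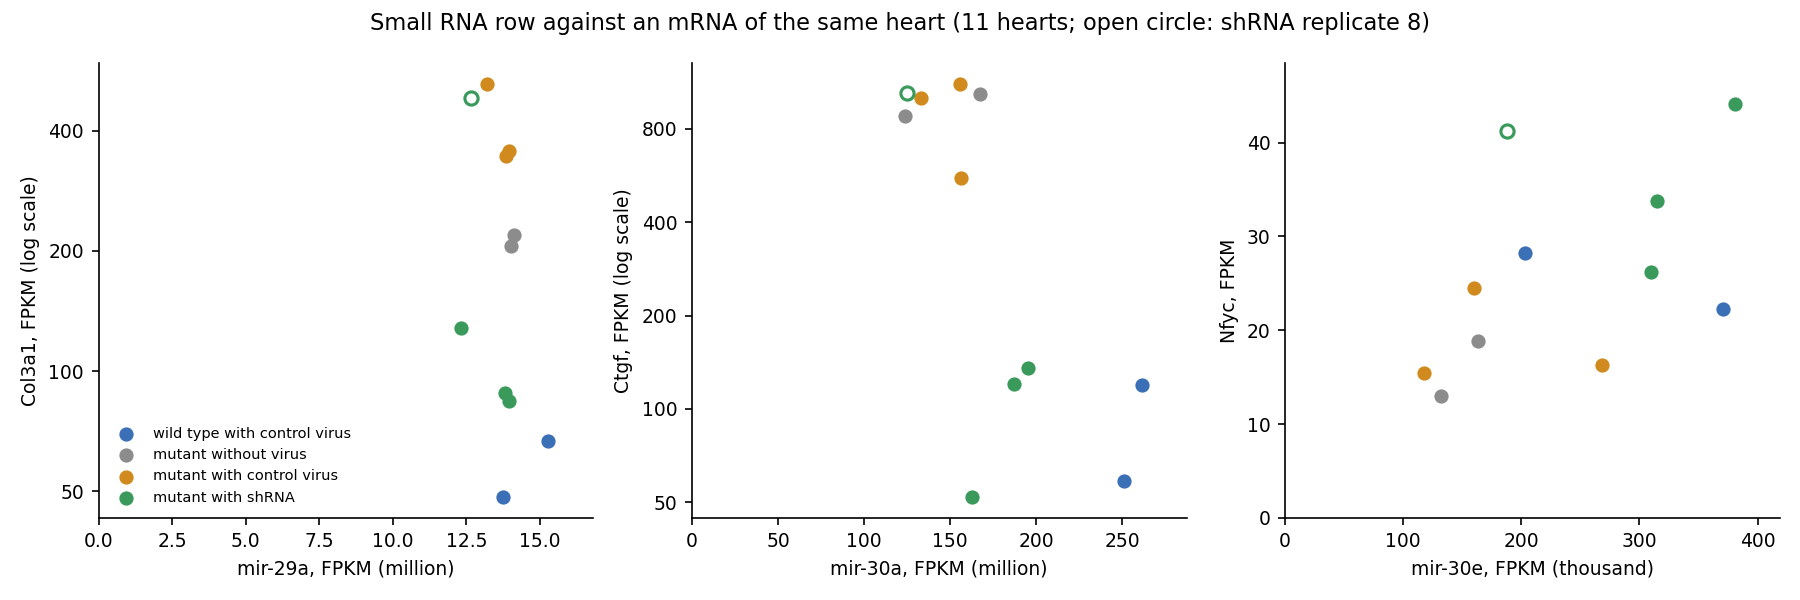
FPKM of a small RNA row (horizontal axes, from 0) against a messenger RNA (vertical axes, log scale for Col3a1 and Ctgf) in 11 hearts, coloured by group, open circle for shRNA replicate 8. Col3a1 runs from 48.4 to 525 FPKM while mir-29a stays between 12.3 and 15.3 MFPKM; Nfyc is plotted as deposited, with replicate 8 at 41.2 in the polyA library with the largest median shift (0.80 on the log2 scale).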

How the data were processed

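Small RNA (50-base single reads) and polyA RNA (100-base paired reads) were sequenced, per the labels' protocols. The authors deposited FPKM in 1 table for each assay; the submitters' processing notes name FastQC 0.11.2, STAR 2.40, Cufflinks 2.2.1, Cuffdiff and mm9, with no roles, and give no annotation or handling of reads that map to several loci. The deposited values were used on the scale log2(FPKM + 1), for rows with a mean of at least 1 FPKM: 280 small RNA rows in 11 libraries and 12980 genes in 13. The 4 groups entered a single linear model (R 4.3.3, package limma 3.58.1, functions lmFit and eBayes with trend, two-sided tests), with Benjamini-Hochberg adjustment over all rows of a comparison. Implied reads were recovered in Python 3.11.15 from the common step of the small RNA values; their intervals are exact Poisson and cover counting error only. No count test was run, since FPKM are not counts. Both procedures were tested on simulated data. The families, target and marker lists were chosen with earlier results of these data known. Genes named are all 10 rows, 13 fixed polyA genes and up to 4 further members of a list with the smallest p. Replicate numbers shared by wild type and mutant were not taken to pair the samples.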

Additional observations from a re-analysis of the deposited data

Results flagged for a closer look

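Within the 4 shRNA hearts, each of 21 named rows was checked for a library far from the other 3, by a test that chance passes in about 1 of 20 groups, and 7 were marked. In 6 of them the far library was replicate 8, and all 6 are genes of the target lists, not miRNA rows. It had 261.85 FPKM of Col1a1 (next 47.6), 302 of Col1a2 (next 73.0), 483 of Col3a1 (next 129), 54.6 of Fbn1 (next 17.4), 1042 of Ctgf (next 136) and 12.7 of Snai1 (next 4.43). In the remaining one, Mcl1, replicate 5 was low at 165 FPKM, against 262 to 271 in the others. None of the 8 miRNA rows above 0 in all 4 hearts was marked.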

How the results depend on the processing

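Of the 10 rows, none passed under another scaling, filter or pseudocount, robust eBayes, the compared groups alone, sex or the replicate block; 1 passed when a library was left out, as a range of 0 to 1 in each of mutant against wild type (mir-30a without shRNA replicate 8, mir-29b-2 without wild-type replicate 2), shRNA against control virus (mir-30d without replicate 8, mir-30c-2 without replicate 7) and shRNA mutant against wild type (mir-29b-2 without wild-type replicate 2). A call of mir-29b-2 or mir-30c-2 rests on 0 to 4 reads. A pseudocount of 1 read with a mean of at least 5 reads, chosen after seeing the data, called 0 of the 10. For the matrix targets, mutant against wild type (10) gave 0 with no filter, 1 with sex as a covariate and 0 with the replicate block. That comparison gave 15 with median alignment, 15 with quantile normalization and all tested but Lamc1 on the compared groups only. Leaving out 1 library gave 1 to 13. For shRNA against control virus (3), no filter gave 0, median alignment 15 and quantile normalization 15. The compared groups only gave 1, sex 0 and leaving out 1 library 0 to 12. The replicate block rests on shared replicate numbers, and whether these pair the samples is not known. In small RNA the correlations of matching numbers, 0.072 and -0.032, cannot show it, since the deviations of 2 wild-type libraries mirror each other. In polyA RNA the correlations were -0.196 and -0.107 for matching numbers, and 0.170 and 0.027 for crossed numbers. Signs of differences that did not pass turned in these cases, and the cause was not tested. For mir-29a they were 0.10 (mutant against wild type) and 0.040 (control virus against untreated) with equal totals, and 0.0035 and 0.18 (shRNA against control virus) with median alignment and quantile normalization. For mir-30a against control virus they were -0.12 (quantile) and -0.21 (sex). In shRNA mutant against wild type quantile normalization gave 0.087 for mir-30c-1 and -0.12 for mir-30d, and Sparc with sex was 0.083 in shRNA against control virus. Leaving out 1 library gave ranges that crossed 0 for mir-29c (shRNA against control virus, -0.083 to 0.48), mir-30a (control virus against untreated, -0.18 to 0.25), mir-30e (the same comparison, -0.098 to 0.49) and, in shRNA mutant against wild type, mir-30b (-0.34 to 0.029), mir-30c-1 (-0.37 to 0.0068) and mir-30e (-0.36 to 0.51). Where a left-out library leaves 1 in a group, that one is assumed to vary like the other groups. Depth limits the rows under about 20 reads.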
